A study of Mus musculus with 6 samples.

Results

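The Xlr3, Xlr4 and Xlr5 genes were followed in kidney progenitor cells with a knockout of Dnmt1, the maintenance methyltransferase that restores CG methylation after each round of DNA replication. The set was Xlr3a, Xlr3b, Xlr3c, Xlr4a, Xlr4b, Xlr4c and Xlr5a, taken by symbol, and all 7 were found among the 26567 annotated genes with a deposited value. RNA had been sequenced from flow-sorted cap mesenchyme, the fetal kidney compartment from which nephrons form, of C57BL/6 mice at embryonic day 18.5. The KO libraries were from homozygous conditional knockouts (Six2.Cre, Dnmt1 -/-) and the HET libraries from conditional heterozygotes (Six2.Cre, Dnmt1 +/-), with 3 libraries in each group. Both groups thus carried Cre, which Six2 sequences drive in nephron progenitors, and sorted cells in which Cre had not acted would keep their Dnmt1 alleles. No wild-type group was analysed here. The labels do not name the embryo behind each library, so p-values measure the spread between these libraries, which may be technical in part. Y-linked levels, given below, differed within each group, so the libraries of a group were not all repeats of the same source.

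XLR stands for X-linked, lymphocyte-regulated. The genes form a rodent multicopy group on the X chromosome, and their small nuclear proteins share the Cor1 domain with Sycp3, a component of the synaptonemal complex of meiotic chromosomes. In mouse brain Xlr3b, Xlr4b and Xlr4c are imprinted, with transcripts coming mainly from the maternal X chromosome, and Xlr3b rises there when the chromatin remodeller Atrx is impaired.

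The 7 genes lie within 191.2 kb on the X chromosome, at chrX:73074343-73265576 in GRCm38.p6. RefSeq places Xlr4a first, followed by Xlr3a, Xlr5a, Xlr3b, Xlr4b, Xlr4c and Xlr3c. The promoter windows below, each 250 bases before to 50 bases after the start used in the RefSeq promoter table, are shown because copies with near-identical sequence differed in how much RNA the HET cells held. CG dinucleotides, the sites of DNA methylation, are in capitals, and each window is written 5′ to 3′ on the strand of its gene (GRCm38.p6). That start is at the outer end of the RefSeq gene for Xlr3a, within 29 bases of it for Xlr3b and the Xlr4 genes, and 186 bases inside the gene for Xlr3c and 1015 bases inside it for Xlr5a, whose window is therefore one of an inner transcript start.
Xlr3a (chrX:73097046-73097345, minus strand): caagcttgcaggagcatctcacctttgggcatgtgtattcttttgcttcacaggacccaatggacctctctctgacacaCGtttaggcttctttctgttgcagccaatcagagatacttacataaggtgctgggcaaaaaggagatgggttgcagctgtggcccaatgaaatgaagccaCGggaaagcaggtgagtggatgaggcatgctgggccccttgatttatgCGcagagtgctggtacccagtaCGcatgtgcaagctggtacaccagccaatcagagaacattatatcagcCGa
Xlr3b (chrX:73191929-73192228, plus strand): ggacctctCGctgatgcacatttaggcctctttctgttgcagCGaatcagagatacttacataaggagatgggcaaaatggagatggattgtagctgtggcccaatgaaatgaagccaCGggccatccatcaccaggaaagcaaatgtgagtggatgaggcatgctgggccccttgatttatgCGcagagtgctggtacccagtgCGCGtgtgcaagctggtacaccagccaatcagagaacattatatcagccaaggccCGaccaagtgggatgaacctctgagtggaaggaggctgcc
Xlr3c (chrX:73265341-73265640, minus strand): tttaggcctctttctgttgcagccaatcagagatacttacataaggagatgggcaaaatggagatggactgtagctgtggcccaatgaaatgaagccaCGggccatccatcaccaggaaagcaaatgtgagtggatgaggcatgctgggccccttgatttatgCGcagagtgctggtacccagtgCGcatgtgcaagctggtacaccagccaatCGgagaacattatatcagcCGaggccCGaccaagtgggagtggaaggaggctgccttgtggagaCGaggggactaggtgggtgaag
Xlr4a (chrX:73082458-73082757, minus strand): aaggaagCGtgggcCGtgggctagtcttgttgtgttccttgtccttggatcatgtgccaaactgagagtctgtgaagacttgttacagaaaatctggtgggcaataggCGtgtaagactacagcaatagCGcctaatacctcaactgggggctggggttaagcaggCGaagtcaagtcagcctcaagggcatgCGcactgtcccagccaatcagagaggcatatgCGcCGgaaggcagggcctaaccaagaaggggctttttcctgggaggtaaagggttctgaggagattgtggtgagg
Xlr5a (chrX:73117653-73117952, minus strand): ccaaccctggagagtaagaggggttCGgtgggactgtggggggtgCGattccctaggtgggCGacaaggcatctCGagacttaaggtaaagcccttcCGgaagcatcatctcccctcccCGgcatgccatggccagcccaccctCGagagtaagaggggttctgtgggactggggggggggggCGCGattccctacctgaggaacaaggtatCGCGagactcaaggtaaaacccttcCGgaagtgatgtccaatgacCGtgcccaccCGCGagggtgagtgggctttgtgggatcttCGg

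The windows of Xlr3b and Xlr3c aligned over 269 bases with 5 mismatches (98.1% identity), with 11 gap columns left out of that value. That of Xlr3a was 94.1% identical to Xlr3b over 237 bases, with 17 gap columns left out. The Xlr4 windows were 98.1% to 98.9% identical to one another, so only that of Xlr4a is printed. CG sites numbered 5 in Xlr3a, 7 in Xlr3b, Xlr3c and Xlr4c, 8 in Xlr4a and Xlr4b, and 16 in Xlr5a. The median over 32841 RefSeq promoter windows was 7, and 33.0% of them held at least as many as Xlr5a. The Xlr3 and Xlr4 windows were thus close to the middle of all promoters in CG number.

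A few motifs were looked for on either strand, as a description of these letters only. None of the 7 windows held the motif CACGTG, which 7.15% of all windows held. None held TATAAA (13.6% of all windows), and none held the motif GCGGGA (20.0% of all windows). A run of 4 GGG blocks spaced by 1 to 7 bases, the pattern of a possible G-quadruplex, was in 1 of the 7, Xlr5a, against 18.5% of all windows. Looked for after the sequences had been seen, the longest run of bases present in all 6 Xlr3 and Xlr4 windows had 14 bases and included CCAAT.
Shared run: CAGCCAATCAGAGA
It was present in 16 of the 32841 windows (0.0487%). These include the 6 windows it was taken from, so the share is no test of its rarity. The place of the run differed among the Xlr3 windows. Xlr3a held it at an upstream and a downstream place, Xlr3b only at the downstream one and Xlr3c only at the upstream one. CCAAT itself was in all 7 windows and in 37.4% of all windows.

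The copies are also close in their transcripts, which bears on every value for a single gene. The leading protein-coding transcripts of Xlr3b and Xlr3c were 99.1% identical, with 14 mismatches over 1564 aligned bases. Identity was 98.84% for Xlr3a and Xlr3b, 98.47% for Xlr3a and Xlr3c, and 98.71% to 99.15% among the Xlr4 genes. Of the 31-mers in the annotated transcripts of each gene, 40.2% occurred in no other gene for Xlr3a, 17.8% for Xlr3c, 15.2% for Xlr4a, 41.8% for Xlr4b and 30.3% for Xlr4c, with Xlr3b between Xlr4c and Xlr3a. For Xlr5a it was 10.4%, because its copies Xlr5b and Xlr5c shared most of its sequence. Reads from shared stretches can be divided among copies only by inference, so each result below is given for the gene and for the sum of its subfamily. Between subfamilies almost nothing was shared: 96.2% of Xlr3, 95.9% of Xlr4 and 96.2% of Xlr5 31-mers occurred only under that subfamily's names, pseudogenes included.

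**Figure D1:**
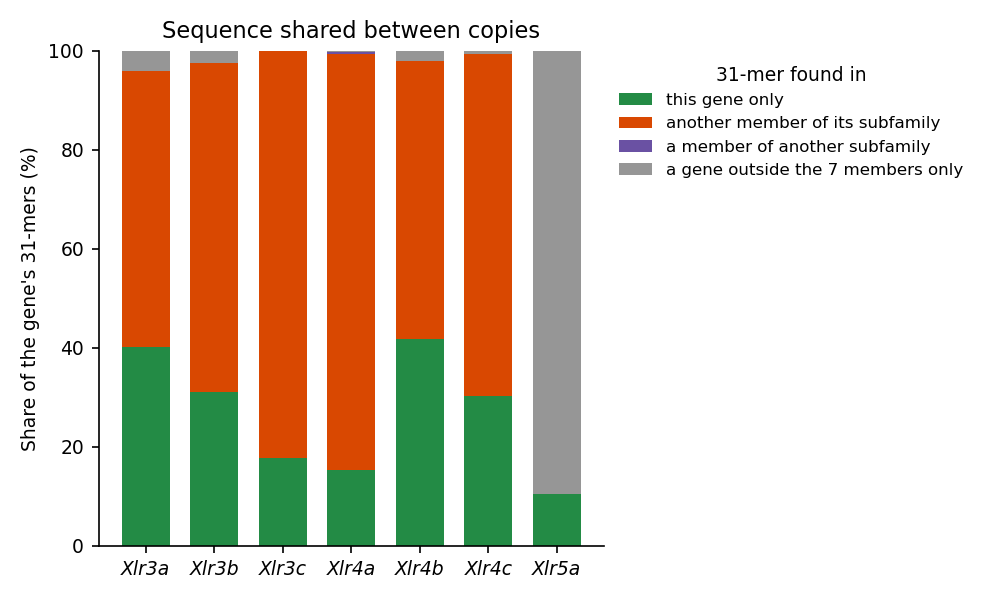
Share of the 31-mers in each gene's annotated transcripts (vertical axis, percent) by where else they occur among 74519 transcripts, for the 7 genes along the horizontal axis. Xlr3c and Xlr4a have 17.8% and 15.2% of their own, and Xlr5a 10.4%, with the rest of Xlr5a found in genes outside the 7.

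Libraries held between 46741667 and 61585484 estimated counts, of which 92.4% to 92.82% fell on transcripts paired with a gene. The floor of 3 counts per library corresponded to 0.0525 to 0.0692 CPM (read counts scaled to a common library size with TMM factors), a limit that covers counting error only. Dnmt1 was at 20.9, 18.6 and 14.9 CPM in the KO libraries, against 40.03, 52.4 and 51.8 CPM in the HET libraries (log2 fold change -1.41 ± 0.15, SE, edgeR quasi-likelihood, adjusted p = 0.000264). Y-linked genes (4 summed) were at 7.78, 185 and 10.4 CPM in KO replicates 1 to 3 and at 309, 9.14 and 256 CPM in HET replicates 1 to 3, so libraries with many and with few Y-linked reads were present in KO and in HET. Nephron progenitor markers (8 genes) summed to 695 to 882 CPM in KO and 1090.0 to 1220.0 CPM in HET libraries, and 2 of the 8 fell. Endothelial markers (8 genes, none at 0) summed to 176, 66.8 and 30.9 CPM in KO replicates 1 to 3 and to 19.2 to 23.3 CPM in HET libraries. Stroma markers (6 genes) summed to 719 CPM in KO replicate 1 and 362 CPM in KO replicate 2, and in KO replicate 3 lay level with the highest HET library, against 227 to 298 CPM in HET libraries, and ureteric bud markers (6 genes) to 56.6, 27.5 and 13.9 CPM in KO and 13.8 to 23.2 CPM in HET libraries. Of the lymphocyte genes, Cd3e and Cd3g, parts of the T cell receptor complex, stayed under 1 CPM in every library, as did Rag1 and Il7r. Others were present: the kinase Lck at 9.74 to 11.0 CPM in KO and 7.15 to 8.78 CPM in HET libraries, and the antigen receptor genes Cd79a at 2.82 to 3.28 CPM in KO and 0.698 to 1.68 CPM in HET libraries, and Cd79b at 5.35 to 5.89 CPM in KO and 6.80 to 10.1 CPM in HET libraries. In that list 1 gene was called higher. Macrophage markers (8 genes) summed to 19.2 to 25.4 CPM in KO and 14.5 to 15.7 CPM in HET libraries. In the endothelial, ureteric bud and macrophage lists 1 gene each was called higher, and in the stroma and nephron progenitor lists none. Over all genes tested, 4.92% were called higher and 1.92% lower (edgeR, adjusted p under 0.05). The part of these cell-type markers in the results below was not tested. In bulk RNA, fewer expressing cells and less RNA per cell cannot be told apart.

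All 7 genes were higher in every KO library than in any HET library, and 6 of the 7 passed the test. Across 16989 genes tested, 6.85% were called in either direction and 4.92% were called higher in KO (adjusted p under 0.05), and 14.0% of the 722 tested genes on chromosome X were. Groups did not overlap, with KO above HET, for 14.8% of genes. The members' median fitted log2 fold change was 5.51, against -0.003 over all genes tested and -0.028 over those on chromosome X. The exception was Xlr3b, the member with the highest mean in HET cells. The same 6 of 7 count was found without each library in turn. For Xlr3c, Xlr5a and the Xlr4 genes, HET libraries held too few reads to pass the filter on low counts by themselves, which favours a call of higher. The members were also chosen with earlier results of these data known, so their count is no test of the family.

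**Figure D2:**
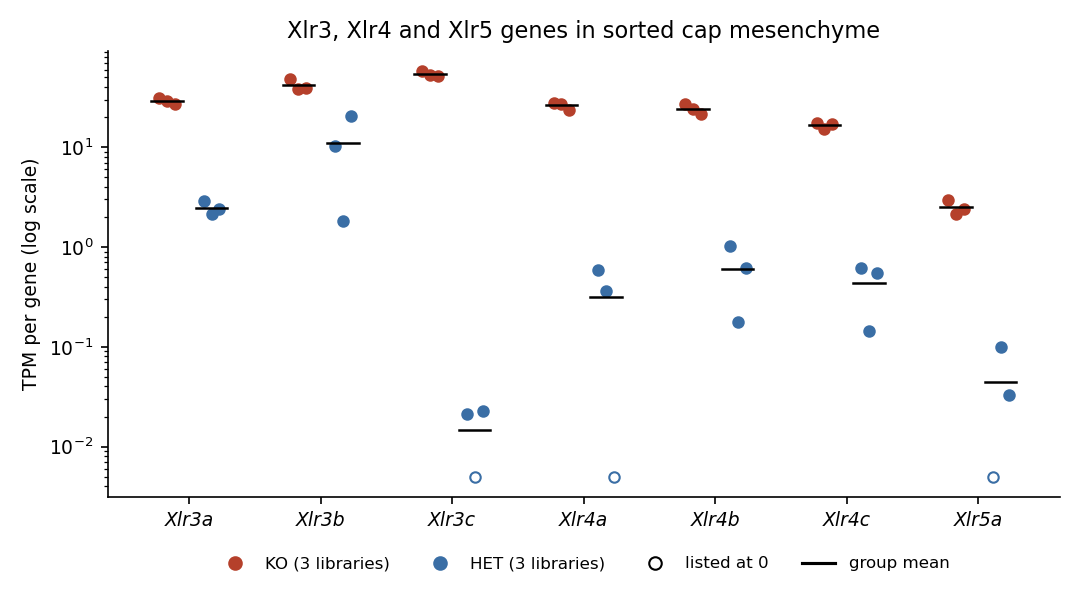
TPM of each gene (vertical axis, log scale) in the 3 KO libraries (left of each pair) and the 3 HET libraries (right), with bars at the group means; open points are libraries listed at 0, drawn at the foot of the axis. Every KO point lies above every HET point of the same gene, and the gap is smallest for Xlr3b and widest for Xlr3c.

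Among the Xlr3 genes, which include Xlr3b, imprinted in brain, the 3 copies started from different levels in HET cells. Xlr3c had 75.5, 75.3 and 70.98 CPM in KO libraries, against 0.0248, 0 and 0.0292 CPM in HET libraries. The HET values stand for 1.3, 0 and 1.3 estimated counts, each under the floor of 3, so this copy was close to silent in HET cells and was at a uniform level in KO cells. Its count ratio was 4420 with an exact binomial 95% interval of 1310 to 18600, which covers counting error only (edgeR quasi-likelihood, adjusted p = 8.69e-10). Xlr3a had 39.2, 39.3 and 33.7 CPM in KO libraries, against 3.29, 2.78 and 2.78 CPM in HET libraries. Unlike Xlr3c it had reads in every HET library, 126.0 to 169 counts each, and it rose by 3.66 ± 0.13 on the log2 scale (SE; adjusted p by edgeR = 4.83e-08).

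Xlr3b had 81.3, 67.4 and 67.2 CPM in KO libraries, against 15.4, 3.01 and 32.4 CPM in HET libraries. Its KO libraries were close to each other, while HET replicate 3 was far above HET replicate 2. The means were 71.97 ± 8.07 CPM in KO and 16.9 ± 14.8 CPM in HET libraries (SD, n = 3 each). The fitted log2 fold change of 2.10 ± 0.86 did not pass (SE, edgeR quasi-likelihood, adjusted p = 0.257), and among the alternatives the adjusted p ran from 0.0251 with limma voom, the only pass, to 0.467 without HET replicate 1. The HET library with few Y-linked reads, replicate 2, was the low one for Xlr3b, and the HET libraries with many, replicates 1 and 3, were higher. In KO, replicate 2 had many Y-linked reads and its 67.4 CPM lay next to the 67.2 CPM of replicate 3, which had few. With 1 HET library on one side no test of that split was made, and sex as a covariate gave an estimate of 2.93 ± 1.02 (SE; adjusted p by edgeR = 0.287). The other 2 Xlr3 copies did not follow Xlr3b across HET libraries: Xlr3a stayed between 2.78 and 3.29 CPM and Xlr3c under 0.03 CPM.

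**Figure D3:**
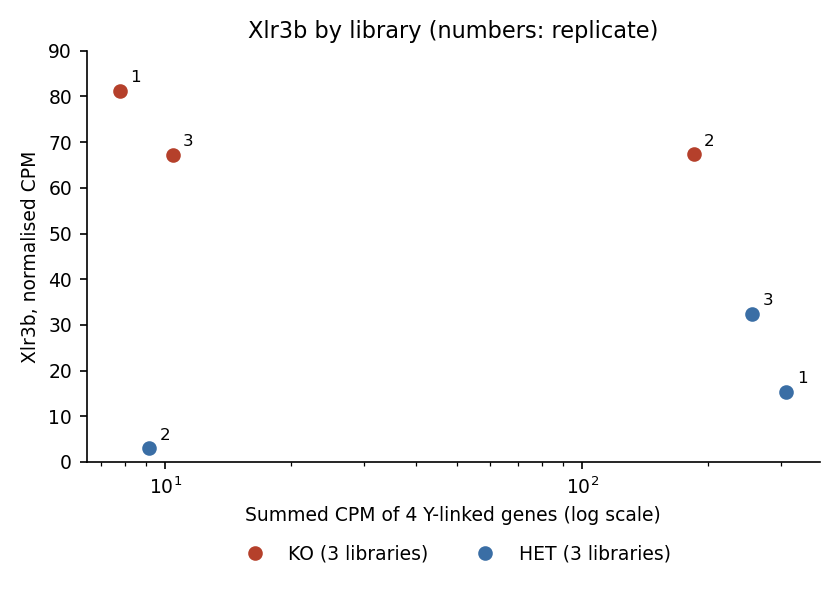
Xlr3b in normalised CPM (vertical axis) against the summed CPM of 4 Y-linked genes (horizontal axis, log scale) in the 3 KO and 3 HET libraries, numbered by replicate. The HET points lie at 3.01, 15.4 and 32.4 CPM with the lowest at the fewest Y-linked reads, while the KO points lie between 67.2 and 81.3 CPM.

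Summed, the Xlr3 genes had 196, 182 and 172 CPM in KO libraries, against 18.7, 5.79 and 35.3 CPM in HET libraries. The groups stood apart, but the spread of the HET libraries, which came from Xlr3b, entered the sum. The log2 fold change was 3.21 ± 0.70 and did not pass (SE; adjusted p by edgeR = 0.0793). Without HET replicate 2 it was 2.77 ± 0.29 with an adjusted p of 0.00736 (edgeR), and DESeq2 gave 3.21 ± 0.69 with an adjusted p of 9.15e-05. Adjusted p over the alternatives to the sum ran up to 0.23.

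The Xlr4 genes were low in HET cells in all copies and rose in all copies. Xlr4a had 21.8, 24.5 and 20.9 CPM in KO libraries, against 0.483, 0.298 and 0 CPM in HET libraries (log2 fold change 6.35 ± 0.67, SE; adjusted p by edgeR = 0.00416; 7.03 without HET replicate 1). Xlr4b had 24.5, 22.8 and 20.1 CPM in KO libraries, against 0.654, 0.16 and 0.533 CPM in HET libraries (5.67 ± 0.40, adjusted p = 9.15e-05, edgeR). Xlr4c had 14.1, 14.1 and 14.9 CPM in KO libraries, against 0.472, 0.104 and 0.483 CPM in HET libraries (5.38 ± 0.43, adjusted p = 0.000119, edgeR). Xlr4b and Xlr4c are imprinted in brain like Xlr3b, and for them too HET replicate 2 was the lowest library, at 9.4 and 6.1 counts against 21.9 to 33.6 counts in HET replicates 1 and 3. Those are few reads, and for Xlr4a the lowest was HET replicate 3, at 0. HET replicate 2 was also the lowest for Xlr3c, at 0 against 1.3 counts in HET replicates 1 and 3, all under the floor of 3. Xlr5a, by contrast, had its most HET counts in replicate 2. Any link of these levels to imprinting or sex was not tested. Together the Xlr4 genes had 60.3, 61.4 and 55.9 CPM in KO libraries, against 1.61, 0.562 and 1.01 CPM in HET libraries. The sum rose by 5.81 ± 0.31 on the log2 scale (SE; adjusted p by edgeR = 3.3e-05), a value that does not depend on how reads were divided among the 3 copies.

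Xlr5a was the lowest member in KO cells. It had 3.14, 2.44 and 2.52 CPM in KO libraries, against 0, 0.119 and 0.0387 CPM in HET libraries, the HET values standing for 0, 7.0 and 1.8 estimated counts (log2 fold change 5.51 ± 0.64, SE; adjusted p by edgeR = 0.000479). The estimate was 6.85 without HET replicate 2, which holds most of the HET counts, and lay between 4.95 and 6.85 over all libraries left out in turn. Its near-identical copies, which are not among the 7, were at similar levels. Xlr5b averaged 1.41 ± 0.163 CPM in KO and 0.00182 ± 0.00315 CPM in HET libraries, and Xlr5c 2.23 ± 0.526 CPM in KO libraries with no counts in HET libraries (SD, n = 3 each). Both rose (adjusted p by edgeR = 0.000183 and 8.32e-05), Xlr5c at least 38.1-fold against 3 counts in each HET library. The 3 Xlr5 copies together had 7.22, 6.40 and 5.40 CPM in KO libraries, against 0, 0.119 and 0.0441 CPM in HET libraries, and here too every KO library lay above every HET library. Fitted as a sum with the Xlr5 pseudogenes, which were at 0, they rose by 6.74 ± 0.58 on the log2 scale (SE; adjusted p by edgeR = 8.49e-05).

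Over the 7 genes, the sum was 259, 246 and 230.3 CPM in KO libraries, against 20.3, 6.47 and 36.3 CPM in HET libraries. The log2 fold change was 3.55 ± 0.68 and did not pass (SE; adjusted p by edgeR = 0.0575). It passed without HET replicate 2 (3.12 ± 0.27, adjusted p = 0.00218, edgeR) and with DESeq2 (adjusted p = 3.03e-06).

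On the TPM scale, which divides by transcript length and so allows genes to be compared, Xlr3c led in KO cells with 54.2 ± 3.28 TPM, although it was the lowest member in HET cells with 0.0145 ± 0.0126 TPM (SD, n = 3 each). Next in KO cells came Xlr3b with 41.9 ± 5.81, Xlr3a with 29.1 ± 2.09, Xlr4a with 26.3 ± 2.35, Xlr4b with 24.2 ± 2.94, Xlr4c with 16.6 ± 1.17 and Xlr5a with 2.50 ± 0.418 TPM. Neighbours in that order had overlapping libraries for Xlr3a and Xlr4a and for Xlr4a and Xlr4b, and did not overlap otherwise. In HET cells the order was Xlr3b with 10.9 ± 9.44, Xlr3a with 2.48 ± 0.359, Xlr4b with 0.602 ± 0.42, Xlr4c with 0.436 ± 0.254, Xlr4a with 0.315 ± 0.294 and Xlr5a with 0.0442 ± 0.051 TPM. Neighbours in the HET order overlapped except Xlr3a, at 2.15 TPM or more, and Xlr4b, at 1.02 TPM or less. Xlr3b overlapped Xlr3a because HET replicate 2 had only 1.83 TPM of it.

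The make-up of the family transcripts was nearly the same in all KO libraries. Xlr3 genes took 64.5%, 63.6% and 64.6% of the summed TPM in KO replicates 1 to 3, against 85.5%, 83.5% and 95.1% in HET replicates 1 to 3. Xlr4 genes took 34.1%, 35.3% and 34.1% in KO libraries, against 14.5%, 14.4% and 4.77% in HET libraries. Xlr3c alone held 27.1% to 28.4% in KO and 0% to 0.137% in HET libraries, and Xlr3b 20.3% to 22.7% in KO and 38.4% to 85.1% in HET libraries.

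**Figure D4:**
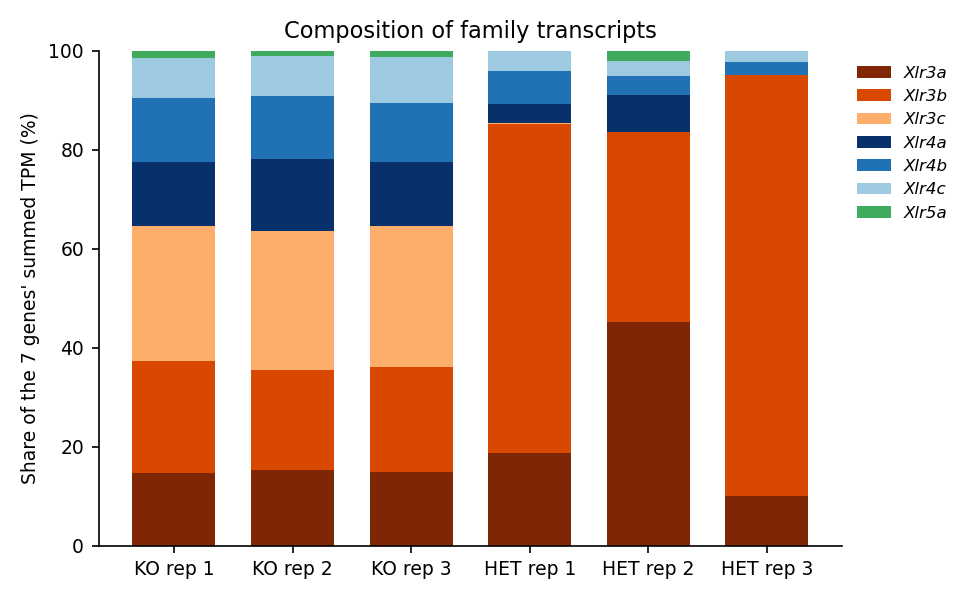
Share of the summed TPM of the 7 genes (vertical axis, percent) held by each gene in each of the 3 KO and 3 HET libraries. The KO bars are alike, with Xlr3c at 27.1% to 28.4%, while Xlr3b and Xlr3a make up most of the HET bars and Xlr3c is at most 0.137%.

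Values of single transcripts varied between KO libraries in places. A 1077-base transcript of Xlr4b was given 0, 105 and 0 counts in KO replicates 1 to 3, although the gene as a whole had 1152, 1184 and 1023 counts. The coefficient of variation over KO libraries was 8.34%, 9.77% and 3.34% for Xlr4a, Xlr4b and Xlr4c, and 4.91% for their sum. For Xlr3a, Xlr3b and Xlr3c it was 8.57%, 11.2% and 3.45%, and 6.59% for their sum. The leading 1564-base transcript of Xlr3b had 1664, 1786 and 1690.0 counts in KO libraries, against 367, 93.8 and 768 in HET libraries. In the same HET libraries the 1584-base Xlr3c transcript had no more than 1.3 counts, so the reads there were assigned to Xlr3b despite 99.1% identity.

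Transcripts annotated as retaining an intron took 56.6%, 48.9% and 50.6% of the Xlr3b counts in KO libraries, against 53.5%, 46.9% and 47.7% in HET libraries. The groups overlapped, with 52.03 ± 4.05% in KO and 49.4 ± 3.60% in HET libraries (SD, n = 3 each; 2-sided exact permutation test, p = 0.5). For Xlr3a the share was 23.1 ± 3.83% in KO and 43.9 ± 6.64% in HET libraries (2-sided exact permutation test, p = 0.1, the smallest that 3 against 3 can give). For Xlr4b, with few HET reads, it was 22.8 ± 5.94% in KO and 30.8 ± 28.3% in HET libraries (2-sided exact permutation test, p = 0.7).

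Relatives of the 7 genes were counted from a list of Sycp3, Slx, Slxl1, Xlr and all other annotated genes named Xlr, 12 with a deposited value. Of these, 4 passed the filter on low counts, and 3 rose and none fell. Over all genes tested, 4.92% were called higher and 1.92% lower. The relatives that rose were Xlr5b, Xlr5c and Xlr. With HET libraries at or near 0, Xlr5b and Xlr5c passed that filter through KO libraries alone and could not have been called lower. Xlr, also on chromosome X but outside the cluster, had 25.8, 23.6 and 25.1 CPM in KO libraries, against 3.14, 2.77 and 2.74 CPM in HET libraries (log2 fold change 3.11 ± 0.13, SE; adjusted p by edgeR = 1.69e-07). Sycp3, the autosomal gene of the synaptonemal complex, had 2.64, 1.16 and 1.25 CPM in KO libraries, against 1.68, 1.52 and 1.26 CPM in HET libraries, and did not pass (0.16 ± 0.37, adjusted p = 0.828, edgeR). Without KO replicate 1, its highest library, the estimate turned to -0.31, and from protein-coding transcripts only it was 2.40 ± 1.25 (adjusted p = 0.315, edgeR). Slx, a spermatid gene, was at 0 in every library. Pseudogenes of the family were near 0: Xlr3d-ps had 43.0 counts over the KO group and 1.1 over the HET group, Xlr4e-ps 27.5 and 0, Xlr3e-ps 4.0 and 0, and Xlr4d-ps 3.6 and 0. Xlr5d-ps and Xlr5e-ps were at 0 throughout, and Slxl1 had 2.1 counts over the KO group and 0 over the HET group.

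Around the cluster, 43 other genes with a start within 1 Mb were tested, and 7 rose and 1 fell, 2 of the 7 being Xlr5b and Xlr5c. That compares with 4.92% of all genes and 14.0% of chromosome X genes called higher, and with 1.92% and 3.19% called lower. Of the genes that rose, all but L1cam were at or near 0 in HET libraries. Those passed the filter on low counts through KO libraries alone and could not have been called lower. The median log2 fold change of the neighbours was 0.16, and 0.14 without Xlr5b and Xlr5c. DXBay18, whose start lies inside the cluster, had 1.29 ± 0.566 CPM in KO libraries and no counts in HET libraries (adjusted p = 0.00065, edgeR). Pnma5, a paraneoplastic antigen gene 37 kb outside it, had 3.74 ± 0.343 CPM in KO and 0.0454 ± 0.0461 CPM in HET libraries (6.32 ± 0.56, SE; adjusted p = 6.05e-05, edgeR; 7.33 without HET replicate 2). Magea10 and Magea4, cancer-testis antigen genes 687 and 852 kb away, were at 0.76 ± 0.396 and 0.60 ± 0.237 CPM in KO libraries with no counts in HET libraries (adjusted p = 0.00221 and 0.00274, edgeR). On log2(TPM + 1) without a filter, tested with limma, the calls of Magea10 (adjusted p = 0.0891) and DXBay18 (adjusted p = 0.0626) were lost. L1cam, a neural adhesion molecule, had 7.73 ± 0.212 CPM in KO and 4.86 ± 0.491 CPM in HET libraries (adjusted p = 0.0462, edgeR), a call that was lost without any 1 of the 6 libraries (adjusted p from 0.0773 to 0.157). Nsdhl, an enzyme of cholesterol synthesis, was the gene that fell, with 38.3 ± 1.29 CPM in KO and 51.1 ± 1.81 CPM in HET libraries (-0.42 ± 0.08, SE; adjusted p = 0.0135, edgeR), and its call was lost without HET replicate 3 (adjusted p = 0.0513, edgeR). These means are given with their SD (n = 3 each).

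**Figure D5:**
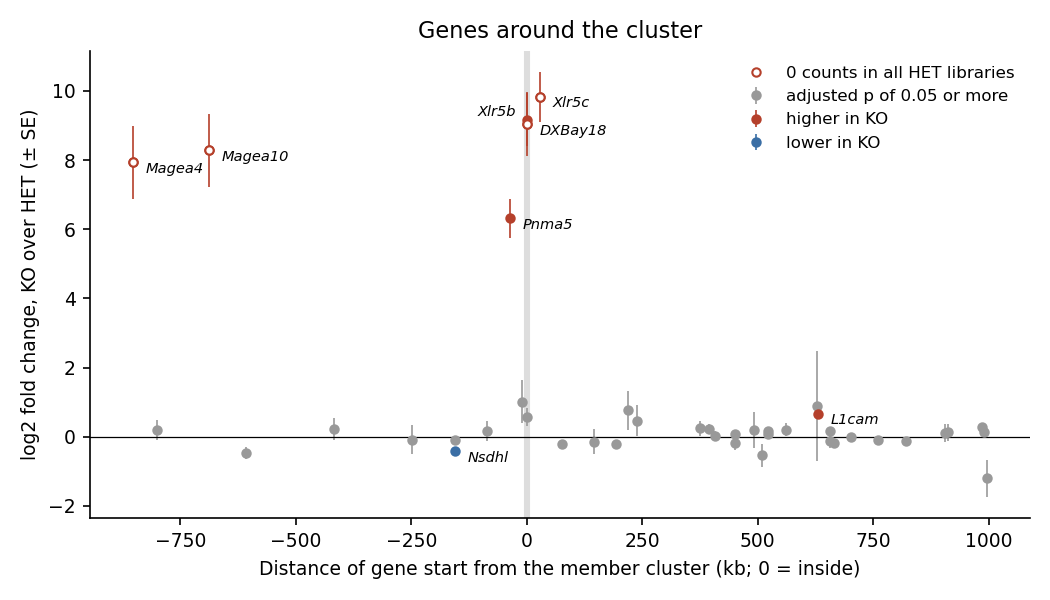
Log2 fold change, KO over HET, with its SE (vertical axis) for the 43 tested genes that start within 1 Mb of the cluster, by distance in kb (horizontal axis, 0 = inside). The 7 genes that rose are Magea4, Magea10, Pnma5, DXBay18, Xlr5b, Xlr5c and L1cam, and Nsdhl fell; for open points, at 0 in all HET libraries, the fitted value depends on the prior count and is no bound.

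Of 13 genes for DNA methylation and for repressors that include Atrx, 12 were tested, and 1 rose and 1, Dnmt1, fell, with a median log2 fold change of -0.02. Over all genes tested, 4.92% were called higher and 1.92% lower. H3f3b, 1 of the genes for the histone variant H3.3, rose, with 2706 ± 176 CPM in KO and 2016 ± 178 CPM in HET libraries (0.42 ± 0.10, SE; adjusted p by edgeR = 0.0246). That call was lost without KO replicate 2 (adjusted p = 0.0986), HET replicate 2 (0.086) or HET replicate 3 (0.116), and the estimate was 0.26 with library totals (adjusted p = 0.0704). It was also lost with the sex covariate (adjusted p = 0.0537, edgeR) and in the 3 TPM settings (adjusted p from 0.144 to 0.169, limma). Atrx, named for its role in brain and outside the rule for named genes, had 576 ± 41.02 CPM in KO and 659 ± 85.3 CPM in HET libraries and did not pass (-0.19 ± 0.10, SE; adjusted p = 0.307, edgeR). Dnmt3l, a cofactor of the de novo methyltransferases, did not pass the filter on low counts and was not tested. It had 10, 10 and 21 counts in KO libraries, against 0, 3 and 1 in HET libraries.

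Genes whose levels over the 6 libraries came closest to the summed family were taken by the smallest Euclidean distance on log2(CPM + 1) among 14367 protein-coding genes, predicted genes left out. They were Pld1, a phospholipase (distance 2.10), Slco1a6, an organic anion transporter (2.17), Stx18, a syntaxin (2.22), Cd74, the invariant chain of class II histocompatibility molecules (2.42), and Mnd1, a meiotic recombination factor (3.05). Pld1, the closest, had 392, 470.4 and 467 CPM in KO libraries, against 13.04, 11.9 and 16.6 CPM in HET libraries. None of the 5 is on chromosome X. The difference in the first 3 lay in transcripts not annotated as protein-coding: from protein-coding transcripts only, the log2 fold change was 0.02 for Pld1, 0.26 for Slco1a6 and -0.05 for Stx18, and the edgeR call was lost for each. Over all transcripts it was 4.83 for Slco1a6 and 2.76 for Stx18. Cd74 lost its call without HET replicate 1 (adjusted p = 0.061, edgeR) and with the replicate block (adjusted p = 0.0769, edgeR). The distance measures level and group difference together, so these genes are alike in amount and in which libraries are high, and nothing more was compared.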

How the data were processed

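RNA-seq libraries of sorted cap mesenchyme, 3 KO and 3 HET, were made from 50 ng of RNA and sequenced on an Illumina instrument, per the labels' protocols. The authors deposited transcript tables, made with kallisto per the submitters' processing notes, which per the file headers hold estimated counts, TPM and effective length (used here only as an offset) for 96626 transcripts per library. The notes name mm10, the assembly of GRCm38. Version, index, read length and strandedness: not given in the sources used here. Without strand, antisense reads cannot be told apart.

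GENCODE vM1 paired 74519 transcripts with 26567 genes, and the other 22107 transcripts were left out. Gene values were the rounded sums of these estimated counts. Neighbours and 31-mers were taken from its NCBIM37 annotation and genome, and printed coordinates and promoters from RefSeq (GRCm38.p6), which matched all 7 genes. KO was compared with HET by edgeR 4.0.16 in R 4.3.3 (limma 3.58.1, DESeq2 1.42.0 for alternatives), with TMM, filterByExpr, robust quasi-likelihood and Benjamini-Hochberg adjustment over all 16989 genes kept. For subfamily and family sums, the sum replaced its members in the same fit. CPM values use TMM library sizes. The fit was tested on simulated data. Libraries did not agree within sampling noise (chi-square per degree of freedom from 14.16 within groups). Named genes were the 7 members, relatives with counts, repressors and neighbours that passed, and the 5 nearest profiles. Sly and Xist had no paired transcript value and were not analysed here. The summed lymphocyte list is not reported here. The members and lists were chosen with earlier results of these data known.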

Additional observations from a re-analysis of the deposited data

How the results depend on the processing

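The count of 6 members called higher was 6 or 7 under every alternative, with 7 only under limma voom, and 6 without each library in turn. The fold changes of the 7 genes, the sums and Dnmt1 kept their direction under all alternatives run. Values whose call was gained were Xlr3b with limma voom (2.75 on the log2 scale), and the Xlr3 and family sums with DESeq2 (3.21 and 3.55), limma voom (3.63 and 3.94), log2(TPM + 1), filtered at a mean of 1 TPM or not (3.40 and 3.87 either way), log2(TPM + 0.1) (3.54 and 3.99), non-robust dispersions (3.21 and 3.55) and protein-coding transcripts only (3.75 and 4.12). The family sum also passed with library totals (3.39) and a transcript length offset (3.8). The cause was not tested. On the log2(TPM + 1) scale, which understates changes of low genes, the estimates lay between 3.63 and 4.40 for the Xlr4 genes and were 1.74 for Xlr5a. The all-gene median shifted to -0.17 under library totals, and to -0.13 or -0.14 under filtered TPM.

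Without each library in turn, the Xlr3 sum lay between 2.77 and 3.91, the family sum between 3.12 and 4.20 and Xlr3b between 1.59 and 2.98. Neighbours called higher numbered 7, then 2 with either TPM setting on filtered genes, 4 with log2(TPM + 1) unfiltered and 4 within 0.5 Mb, where fewer genes are tested, and 6 without each library in turn. Neighbours called lower numbered 1, then 3 with library totals, 2 with log2(TPM + 1) filtered or not, 2 within 2 Mb, 0 with sex as a covariate and 0 to 1 without each library in turn. Sycp3 was not called in any setting and its estimate turned to -0.04 (log2(TPM + 1), filtered or not), -0.09 (log2(TPM + 0.1)), 0.00 (sex covariate), was 2.40 with protein-coding transcripts only, and lay between -0.31 (without KO replicate 1) and 0.38 without each library in turn. That of Stx18 turned to -0.05 with protein-coding transcripts only.

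The samples share only a replicate number: deviations of same-numbered libraries correlated at -0.06, -0.05 and -0.03, and no KO library was closest to the HET library of its own number. With the replicate number as a block, 6 of 7 members were called, Xlr4a had an adjusted p of 0.041 (edgeR), the Xlr3 sum was 3.50 and the family sum 3.82 without passing, and the genes called overall fell to 972 against 1163. HET values of Xlr3c, Xlr4a and Xlr5a rest on few reads, so at this depth their fold changes are imprecise.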

Other observations

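The Xlr gene itself divided into transcripts with different values. Its 984-base transcript had 483, 356 and 453 counts in KO libraries, against 0, 13.0 and 4.7 in HET libraries, and its 1032-base transcript had 579, 696 and 573 counts in KO libraries, against 4.4, 0 and 3.9 in HET libraries. The 1860-base transcript had 156, 172 and 253 counts in KO libraries and 157, 149.9 and 116 in HET libraries, so nearly all HET reads of the gene were assigned to that form. These transcripts were chosen after their values were seen and were not tested.

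Also chosen after their values were seen were 2 X-linked genes that RefSeq lists with the older names Xlr6 and Xlrl. 3830403N18Rik (Xlrl) had 20.02, 19.97 and 18.3 CPM in KO libraries, against 0.128, 0.0183 and 0.0441 CPM in HET libraries (log2 fold change 8.18 ± 0.37, SE; adjusted p by edgeR = 3.12e-07). Without HET replicate 1, its highest HET library, the estimate was 9.27. 1700013H16Rik (Xlr6) had 13, 16 and 11 counts in KO libraries and none in HET libraries (adjusted p = 0.00969, edgeR, and 0.0515 with a replicate block).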
